A study of Mus musculus with 8 samples.

Results

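The genes described here make and break down prostaglandins and leukotrienes, or receive their signals. There are 9 of them among the 49585 gene identifiers of the table: Ptgs1, Ptgs2, Ptges, Hpgds, Hpgd, Ptger4, Alox5, Alox5ap and Ltc4s. They were chosen by name and function, and all 9 were found by symbol and passed the filter on low values. RNA came from the intestine of 8 C57BL/6 mice. Of these, 4 were recipients of Klebsiella and 4 were recipients of Lactobacillus, both genera of gut bacteria. Both groups share the strain, tissue and library kit. The sources used here do not give age, sex, diet, the material the mice received or the stretch of intestine. The 8 libraries include no mice that received nothing, so a difference cannot be assigned to either group of bacteria. Each library is 1 mouse, so the spread between replicates is a spread between animals.

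Prostaglandins and leukotrienes are short-lived lipid signals made from arachidonic acid, which phospholipases cut from membranes. The cyclooxygenases Ptgs1 and Ptgs2 turn it into a common precursor, from which terminal synthases make prostaglandin E2, prostaglandin D2 and others. In the gut, prostaglandin E2 acts through receptors such as EP4 (Ptger4) on epithelial repair, secretion and motility, and Hpgd ends its action by oxidation. The lipoxygenase Alox5 works with its partner protein Alox5ap to start the leukotrienes, and Ltc4s makes leukotriene C4. Tuft cells, mast cells and other white blood cells are known sources of leukotrienes in the mucosa.

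The authors' filter left 40455910 to 55447220 reads in each library. FPKM scales the reads of a gene by its length and by the depth of the library, and the reads in genes, recovered from the steps of these values, came to 15753959 to 21548070. Q30, the share of bases with a quality score of 30 or more, was 90.65% in Klebsiella replicate 4 and at least 94.03% in the other libraries. The tissue carried colon markers such as Car1 (195 to 2947 FPKM). The summed FPKM of 7 genes of the small intestine was 13.2 in Klebsiella replicate 3 and 10.01 in Lactobacillus replicate 2, mostly from Slc10a2 and Alpi, and at most 1.98 in the other libraries. The rest of this list, Fabp1, Apoa4, Apoc3, Lct and Sis, was at most at 0.695 FPKM per gene in any library. The colon marker Car1 was highest in this pair as well, at 2342 and 2947 FPKM. The same pair stood apart in the position gene Hoxb6, with 40.2 and 45.2 FPKM against 1.16 to 3.87 in the others. Before adjustment, the distal gut genes Hoxd13 and Hoxb13 also differed in mean level between the groups, and neither passed after adjustment. Hoxd13 was at 46.3, 3.25, 2.20 and 8.03 FPKM in the Klebsiella libraries and 43.9, 19.1, 27.3 and 39.2 FPKM in the Lactobacillus libraries (log2 difference -1.97, limma unadjusted p 0.0343, adjusted p 0.774). Hoxb13 was likewise lower on average in Klebsiella libraries (log2 difference -0.62, limma unadjusted p 0.0245, adjusted p 0.774). The position gene Hoxd10 had a log2 difference of -0.63 (SE 0.495, limma unadjusted p 0.233). For Hoxb6 it was -0.056 (SE 1.16, limma unadjusted p 0.963), so the sign was resolved for neither Hoxd10 nor Hoxb6. Klebsiella replicate 2 and Lactobacillus replicate 3 had 418 and 112 FPKM of the pancreatic protease transcript Ctrb1, against at most 2.99. These are whole pieces of tissue, in which fewer cells of a type and less RNA per cell cannot be told apart.

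The promoters of Ptgs2, Ptger4, Hpgd and Alox5 are shown because these 4 genes carry the results below. Each is the 250 bases before the annotated start, read 5′ to 3′ on the gene's strand (RefSeq, GRCm38.p6), and capitals mark matches to the motifs named after them.
Ptgs2, chr1:150099781-150100030, plus strand: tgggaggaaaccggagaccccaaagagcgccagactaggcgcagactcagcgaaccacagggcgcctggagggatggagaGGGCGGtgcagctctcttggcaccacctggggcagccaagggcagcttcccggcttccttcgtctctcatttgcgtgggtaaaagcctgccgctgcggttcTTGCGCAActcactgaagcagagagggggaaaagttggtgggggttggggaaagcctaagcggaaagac
Ptger4, chr15:5244188-5244437, minus strand: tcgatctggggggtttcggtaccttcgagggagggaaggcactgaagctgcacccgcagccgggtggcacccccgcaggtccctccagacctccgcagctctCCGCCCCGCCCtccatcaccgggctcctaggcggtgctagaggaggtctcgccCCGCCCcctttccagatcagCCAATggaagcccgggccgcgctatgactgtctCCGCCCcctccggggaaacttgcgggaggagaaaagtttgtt
Hpgd, chr8:56294302-56294551, plus strand: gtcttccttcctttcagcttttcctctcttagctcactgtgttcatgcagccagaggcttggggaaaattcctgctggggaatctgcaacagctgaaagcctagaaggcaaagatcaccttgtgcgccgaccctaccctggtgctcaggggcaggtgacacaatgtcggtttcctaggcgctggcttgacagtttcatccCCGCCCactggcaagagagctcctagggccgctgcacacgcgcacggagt
Alox5, chr6:116461179-116461428, minus strand: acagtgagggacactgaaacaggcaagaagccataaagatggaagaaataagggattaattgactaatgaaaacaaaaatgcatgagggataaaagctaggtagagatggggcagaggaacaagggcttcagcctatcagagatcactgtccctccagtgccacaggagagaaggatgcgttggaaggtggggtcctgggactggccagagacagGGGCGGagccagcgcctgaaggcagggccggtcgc
Further matches lie just after the RefSeq starts of Ptgs2 and Hpgd, shown as stretches of 25 bases. For Hpgd the GENCODE gene start used for positions below, 56294585, lies downstream of this stretch, so the match is after one annotated start and before the other.
Ptgs2, chr1:150100035-150100059: tcaccactACGTCACGTGgagtccg
Hpgd, chr8:56294552-56294576: gggcTATAAAagctgctgcggcgtc
The motifs were searched on both strands of the whole window of 300 bases in all 32851 promoters of the table. The Ptgs2 window held the C/EBP palindrome TTGCGCAA, which 0.183% of all windows held, a cyclic AMP response element core TGACGT (7.51% of windows) and an E-box CACGTG (7.15%). The last 2 overlap by 2 bases, from base 13 to base 22 after the start. The Hpgd window held a TATA box TATAAA (13.6% of windows) and, like the Ptgs2 and Alox5 windows, 1 GC box GGGCGG (35.7%). Ptger4 held 4 GC boxes, 2 of which share a base, and a CCAAT box (37.4%). The table matched 8 of the 9 genes by symbol, all but Alox5ap. The Ptges window held 2 GC boxes, and those of Ptgs1, Hpgds and Ltc4s held none of the 6 motifs. A match is a run of letters and no evidence of binding.

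Cyclooxygenases came first. Ptgs2, the inducible cyclooxygenase (chromosome 1, 150100031 to 150108227, GRCm38), stood at 9.53, 15.99, 3.47 and 7.88 FPKM in Klebsiella mice 1 to 4, and at 5.87, 2.88, 2.35 and 2.49 FPKM in Lactobacillus replicates 1 to 4. It was highest in 3 Klebsiella libraries, and the groups overlapped because Klebsiella replicate 3 lay below Lactobacillus replicate 1. The means were 9.22 ± 5.19 against 3.39 ± 1.66 FPKM (SD, n = 4 each). On the log2(FPKM + 0.5) scale the difference was 1.23 (SE 0.43, 95% interval 0.26 to 2.19), from 105 to 739 reads per library. It had a limma unadjusted p of 0.0183 and an adjusted p of 0.774, so it did not pass the threshold of 0.05. Without the 2 libraries high in Ctrb1 the difference was 0.79 (SE 0.43), and its limma unadjusted p was then 0.107 (adjusted p 0.985), over 0.05.

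Ptgs1, the constitutive cyclooxygenase (chromosome 2, 36230426 to 36252272), was steadier. It was at 16.05, 22.4, 24.2 and 15.8 FPKM in the Klebsiella libraries and at 15.5, 16.7, 16.02 and 16.6 in the Lactobacillus libraries, in replicate order. Klebsiella replicates 2 and 3 stood above all others, while replicates 1 and 4 were level with the Lactobacillus libraries. Its log2 difference was 0.24 (SE 0.15, limma adjusted p 0.774), and -0.020 with log2 Hoxd13, a marker of the distal gut, as a covariate. Ptgs1 was above Ptgs2 in every library. The ratio of Ptgs2 to Ptgs1 FPKM was 0.594, 0.715, 0.143 and 0.498 in the Klebsiella libraries and 0.378, 0.172, 0.146 and 0.150 in the Lactobacillus libraries. From the lowest to the highest library Ptgs2 spanned 6.81-fold and Ptgs1 1.56-fold.

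**Figure D1:**
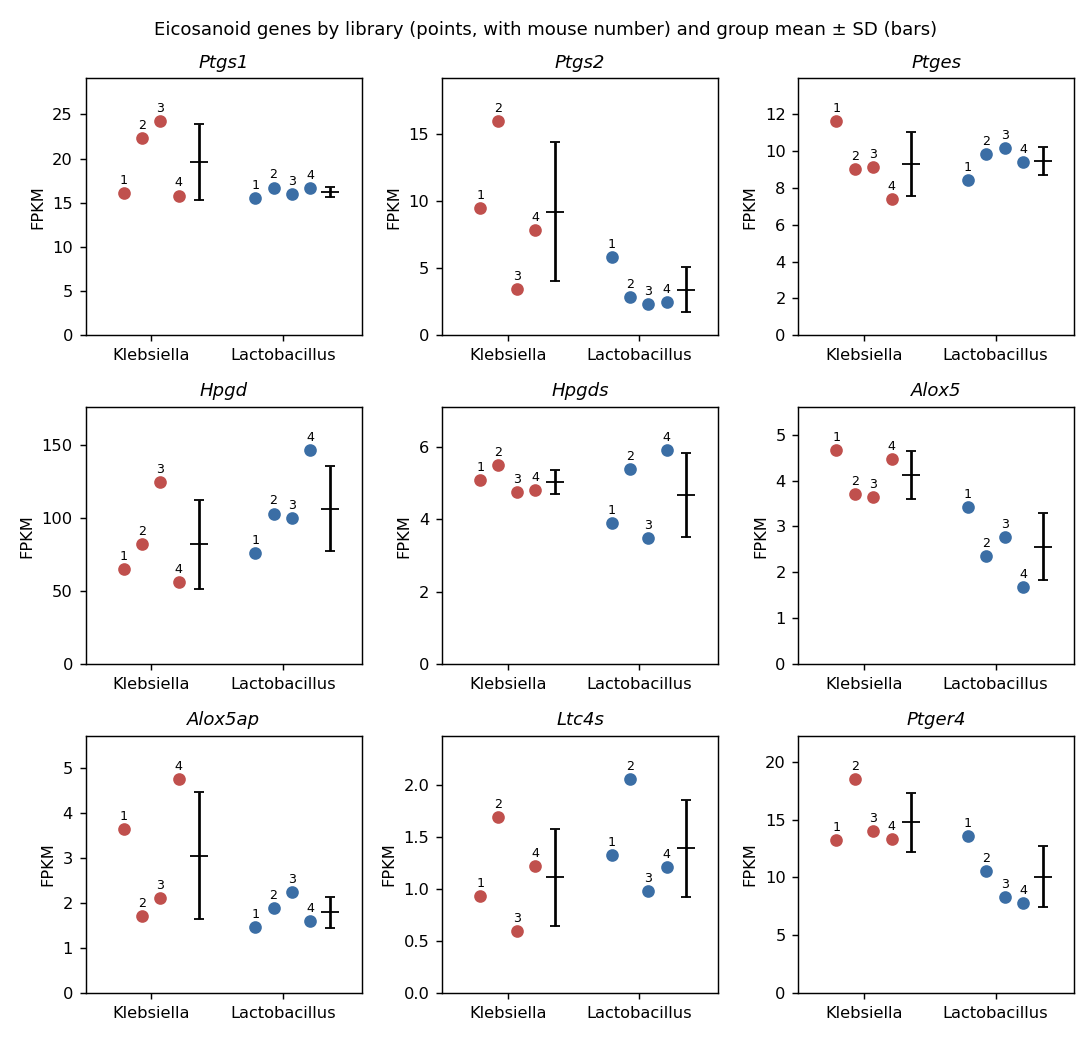
FPKM of the 9 genes in each library (points, numbered by mouse) with the group mean and SD (black bars, n = 4), each panel with its own axis from 0. The Alox5 points of the 4 Klebsiella libraries (3.65 to 4.66 FPKM) all lie above those of the 4 Lactobacillus libraries (1.68 to 3.43), and the groups overlap in the other 8 panels.

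The synthases downstream of the cyclooxygenases differed less. Ptges, the inducible prostaglandin E synthase, was at 7.42 to 11.6 FPKM in Klebsiella and 8.42 to 10.2 FPKM in Lactobacillus libraries. Its log2 difference was -0.035 (SE 0.14, 95% interval -0.36 to 0.29, limma adjusted p 0.970). Hpgds, the prostaglandin D synthase of blood cells and tuft cells, was at 4.75 to 5.49 against 3.48 to 5.91 FPKM. Its log2 difference was 0.12 (SE 0.17, 95% interval -0.27 to 0.52, limma adjusted p 0.887). Both were close to their group means in most libraries, and the Lactobacillus libraries were the more spread for Hpgds (SD 1.17 against 0.338 FPKM). Ptges was above Hpgds in every library, by 1.54-fold to 2.92-fold.

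Hpgd, the dehydrogenase that inactivates prostaglandins (chromosome 8, 56294585 to 56321043), had the highest level of the 9 genes. Its FPKM was 65.5, 82.1, 124.7 and 56.2 in Klebsiella replicates 1 to 4, and 76.2, 103.2, 99.95 and 146.7 in Lactobacillus replicates 1 to 4. The groups overlapped, and the 4 libraries lowest in Hpgd were the 4 highest in Ptgs2. The means were 82.1 ± 30.3 against 106.5 ± 29.4 FPKM (SD, n = 4 each). On the log2 scale that is a difference of -0.40 (SE 0.27, 95% interval -1.0 to 0.20, limma adjusted p 0.781). Leaving out replicate 4 of either group gave -0.24. Leaving out Klebsiella replicate 3 gave -0.62, leaving out both libraries high in Hoxb6 gave -0.63, and the Hoxd13 covariate gave -0.73. The ratio of Hpgd to Ptgs2 FPKM was 5.13 to 7.13 in Klebsiella replicates 1, 2 and 4, 13.0 in Lactobacillus replicate 1 and 35.9 to 59.0 in the other libraries, among them Klebsiella replicate 3. The summed FPKM of 6 adipocyte genes did not overlap between groups, at 1.90 to 20.1 in Klebsiella and 25.1 to 240.5 in Lactobacillus libraries. Over all genes tested, 1.8% did not overlap in that direction. Of the 6, 5 were tested, each with a limma adjusted p of 0.774. The sum was highest in Lactobacillus replicate 4, which also held the most Hpgd. In Klebsiella replicate 3, with 124.7 FPKM of Hpgd, the sum was 9.88. In Lactobacillus replicate 1, with 76.2 FPKM of Hpgd, it was 39.8. The part of fat in the Hpgd values was not tested.

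Ptger4, the EP4 receptor for prostaglandin E2 (chromosome 15, 5206661 to 5244187), was at 13.2, 18.5, 14.0 and 13.3 FPKM in the Klebsiella libraries and at 13.6, 10.6, 8.31 and 7.77 FPKM in the Lactobacillus libraries. The groups overlapped only through Lactobacillus replicate 1, which lay above Klebsiella replicates 1 and 4. The means were 14.8 ± 2.53 against 10.1 ± 2.64 FPKM (SD, n = 4 each) from 470 to 1227 reads. The log2 difference was 0.55 (SE 0.19, 95% interval 0.13 to 0.98, limma unadjusted p 0.0169, adjusted p 0.774). Its limma unadjusted p was over 0.05 in 3 of 21 alternatives: 0.114 with log2 Hoxd13 as a covariate (difference 0.45), 0.118 without the pair high in Ctrb1 (difference 0.36) and 0.0505 without Klebsiella replicate 2 (difference 0.44). The gene overlaps Ttc33 on the opposite strand, and the sources used here do not say whether counting used the strand.

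Leukotriene genes followed. Alox5, the 5-lipoxygenase (chromosome 6, 116410077 to 116461178), measured 4.66, 3.71, 3.65 and 4.47 FPKM in Klebsiella replicates 1 to 4, and 3.43, 2.35, 2.78 and 1.68 FPKM in Lactobacillus replicates 1 to 4. All 4 Klebsiella libraries were above all 4 Lactobacillus libraries. The gap between the groups was narrow, from 3.43 to 3.65 FPKM, or 97 and 105 reads. The means were 4.12 ± 0.519 against 2.56 ± 0.736 FPKM (SD, n = 4 each), and the log2 difference was 0.62 (SE 0.20, 95% interval 0.17 to 1.07). It had a limma unadjusted p of 0.0119, the smallest of the 9 genes, and an adjusted p of 0.774. Over all genes tested, the groups did not overlap for 1.19% in the higher and 1.8% in the lower direction. The Alox5 difference was 0.71 without the pair high in Ctrb1 and 0.65 without the pair high in Hoxb6.

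Alox5ap, the protein that presents arachidonic acid to Alox5 (chromosome 5, 149264767 to 149288153), was at 3.66, 1.71, 2.10 and 4.76 FPKM in the Klebsiella libraries and at 1.46, 1.89, 2.24 and 1.60 FPKM in the Lactobacillus libraries. Klebsiella replicates 1 and 4 were high, and the other 2 Klebsiella libraries lay within the Lactobacillus range. These values rest on 15 to 53 reads. The log2 difference was 0.55 (SE 0.28, 95% interval -0.085 to 1.19, limma adjusted p 0.774). It was 0.34 without Klebsiella replicate 4, 0.34 with array weights, 0.84 without the pair high in Ctrb1 and 0.88 with the Hoxd13 covariate. Klebsiella replicate 4 also had the most S100a8 and S100a9, transcripts of neutrophils, at 8.32 and 9.16 FPKM against at most 1.85 and 1.60 FPKM in the other libraries. Of 8 neutrophil genes 4 were tested, 3 with a positive difference, and 6 were at 0 in at least 1 library. Their summed FPKM was 38.5 to 86.7 in Klebsiella and 48.7 to 179.7 in Lactobacillus libraries. Most of it came from Ly6g, so the sum says little about the other neutrophil genes. Lactobacillus replicate 4 had the most Ly6g, at 178.5 FPKM, with 0 FPKM of S100a8 and 0.332 FPKM of S100a9. The part of neutrophils in the Alox5ap values was not tested.

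Ltc4s, the leukotriene C4 synthase (chromosome 11, 50236461 to 50238616), was the lowest of the 9 genes, at 0.927, 1.69, 0.598 and 1.22 FPKM in the Klebsiella libraries and 1.32, 2.05, 0.978 and 1.21 in the Lactobacillus libraries. With 6 to 25 reads per library it had little resolution, and the libraries of both groups were mixed. The log2 difference was -0.25 (SE 0.26, 95% interval -0.84 to 0.34, limma adjusted p 0.843), and 0.076 without the pair high in Hoxb6. Ltc4s overlaps an antisense gene, whose reads cannot be told apart without strand. The same limit holds for Alox5ap, which overlaps Gm19719 and n-R5s180 on the opposite strand. It also holds for Ptgs1, with Gm43621, and Hpgds, with Gm17147. Hpgd overlaps Gm45540 and Ptges overlaps Gm13400 on the same strand, where knowing the strand would not separate the reads.

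Tuft cell transcripts were on the same side as Alox5. Of 12 tuft cell genes 9 were tested, and each was higher on average in Klebsiella recipients: the median log2 difference was 0.54, against -0.017 over all genes tested. At an unadjusted p under 0.05 there were 7 of the 9, against 2.55% of all genes in that direction, and 0 passed after adjustment. Their summed FPKM was 41.1 to 50.2 in Klebsiella and 22.8 to 34.1 in Lactobacillus libraries. Gng13 and Il25 of this list were at 0 in some libraries. Besides Alox5, the members Ptgs1, Hpgds, Alox5ap and Ltc4s are known to be transcribed in tuft cells, and their groups overlapped. The macrophage list (8 genes, summed FPKM 126.3 to 157.2 against 129.4 to 211.3) and the mast cell list (10 genes, 36.0 to 57.1 against 32.8 to 45.5) overlapped between the groups. Most of the mast cell sum came from Kit, at 26.9 to 52.7 FPKM, so it says little about the other mast cell genes. Only 5 of the 10 mast cell genes were tested. The mast cell genes Fcer1a, Ms4a2 and Mcpt4 were at 0 in at least 1 library. The part of any cell type in the Alox5 values was not tested.

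In the comparison across the whole table, limma called 0 of the 9 genes and 0 of all 16865 genes tested at an adjusted p under 0.05 (0.0% higher and 0.0% lower in Klebsiella recipients), and the smallest adjusted p of any gene was 0.462. Before adjustment, 3 of the 9 had a p under 0.05, Ptgs2, Alox5 and Ptger4, all higher in Klebsiella recipients, and 0 lower. Over all genes tested 6.07% were at that level, 2.55% higher and 3.52% lower. Voom on the recovered reads also called 0 genes. Of the 9 genes 6 were positive and 3 negative, and their median was 0.24, against 46.4% positive and a median of -0.017 over all genes. The members were chosen with earlier results of these libraries known, so these counts describe them and support no statement about the group of genes. The intervals of the other 6 genes include 0, so a difference in either direction was neither detected nor excluded for them at this number of mice. After adjustment no difference was called for any of the 9.

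**Figure D2:**
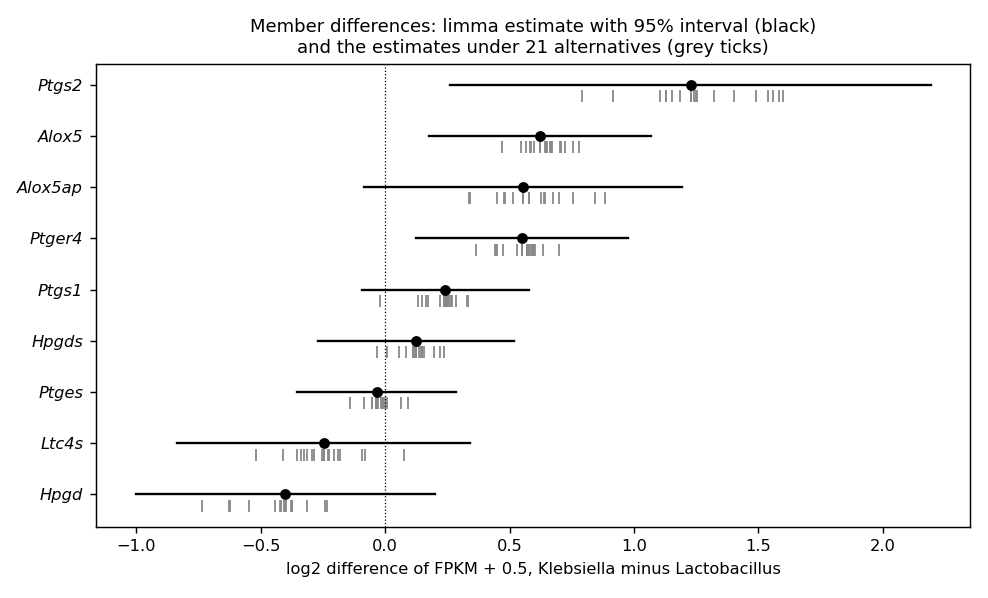
Log2 difference of FPKM + 0.5, Klebsiella minus Lactobacillus, for the 9 genes: limma estimate (black point) with its 95% interval (black line) and the estimates under 21 alternative settings (grey ticks). The intervals of Ptgs2 (0.26 to 2.19), Alox5 (0.17 to 1.07) and Ptger4 (0.13 to 0.98) lie above 0 before adjustment for the number of genes, and the other 6 include 0.

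The order of levels per length was Hpgd, Ptgs1, Ptger4, Ptges, Ptgs2, Hpgds, Alox5, Alox5ap and Ltc4s, from a mean over the 8 libraries of 94.3 ± 30.6 down to 1.25 ± 0.456 FPKM (SD, n = 8). Only Hpgd was separate in range from its neighbour, with a lowest value of 56.2 FPKM against a highest of 24.2 FPKM for Ptgs1. Ptgs1 was above Ptger4, and Hpgds above Alox5, in all 8 libraries although their ranges touched. Ptgs2 changed places most: it was above Hpgds in 4 of 8 libraries. The enzyme that ends prostaglandin signals was thus the most abundant transcript of the set in every library, and the leukotriene transcripts were the lowest by mean.

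Over the 8 libraries, some pairs of members had a high correlation before adjustment. Ptgs2 and Ptger4 had a Pearson r of 0.851 (exact permutation p = 0.00779, adjusted p 0.242 over 36 pairs of members) and a Spearman rho of 0.738 (exact permutation p = 0.0458, adjusted p 0.550). Without Klebsiella replicates 1 and 2, the farthest in Ptgs2, r was 0.768, and it was 0.693 for deviations from the group means. Hpgd ran against Alox5, with r of -0.813 (exact permutation p = 0.0134, adjusted p 0.242) and rho of -0.786 (exact permutation p = 0.0279, adjusted p 0.503). Without Klebsiella replicate 4 and Lactobacillus replicate 4 that r was -0.571, and within groups it was -0.824. Hpgd also ran against Ptgs2, with r of -0.723 (exact permutation p = 0.0468, adjusted p 0.337) and rho of -0.667 (exact permutation p = 0.0831, adjusted p 0.680); r was -0.867 without Klebsiella replicates 1 and 2 and -0.631 within groups. For Alox5 and Ptger4 r was 0.761 (exact permutation p = 0.0279, adjusted p 0.322) and rho 0.595. For Ptgs2 and Alox5 r was 0.736 (exact permutation p = 0.0357, adjusted p 0.322) and rho 0.833. Within groups these r values were lower, at 0.434 and 0.411. None of the 36 pairs passed after adjustment, and the libraries also share differences in position and tissue content.

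The genes whose profile over the 8 libraries was most like that of each member were picked by Pearson r of log2 values among 14048 named genes. The top of so many is high by choice, so these r values are a description only. For Ptgs2 they were Actb, the cytoskeletal beta actin, Gem, a small GTP-binding protein, and Nr4a2, an immediate-early nuclear receptor, with r of 0.990, 0.985 and 0.980. Actb, often used as a reference gene, measured 3289, 3835, 1549 and 2802 FPKM in Klebsiella replicates 1 to 4, against 2140, 1506, 1371 and 1379 FPKM in Lactobacillus replicates 1 to 4. It ranked the 8 libraries in the same order as Ptgs2 (rho 1). Nr4a2 was at 10.6, 16.9, 4.64 and 7.67 against 9.02, 3.72, 2.90 and 2.88 FPKM. The libraries high in Ptgs2 were thus high in these transcripts too, Lactobacillus replicate 1 included.

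Ptger4 was nearest to Azin1, an antizyme inhibitor, Fzd9, a Wnt receptor, and Odc1, the enzyme that starts polyamine synthesis (r of 0.985, 0.976 and 0.975). Azin1 was at 63.4 to 79.98 FPKM in Klebsiella and 43.4 to 67.9 FPKM in Lactobacillus libraries. For Hpgd the nearest were Gpbp1l1, Erbb3, an epithelial growth factor receptor, and Nudt4 (r of 0.992, 0.988 and 0.988, rho 1 for each). Alox5 was nearest to Api5, Arf4, a GTPase of Golgi traffic, and Sec61a1, the pore of the endoplasmic reticulum (r of 0.988, 0.978 and 0.974). For Ptgs1 they were Itpr2, Epg5 and Pdzd2 (r of 0.977, 0.973 and 0.967), and for Ptges Srd5a1, Cd164l2 and Tspan12 (0.991, 0.989 and 0.959). For Hpgds they were Rrm2b, Ighv1-78 and Cd83 (0.965, 0.951 and 0.938), for Alox5ap Selp, Mir7664 and Kti12 (0.963, 0.960 and 0.960) and for Ltc4s Tbc1d10c, Cxcr4 and Cpsf7 (0.939, 0.932 and 0.931).

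**Figure D3:**
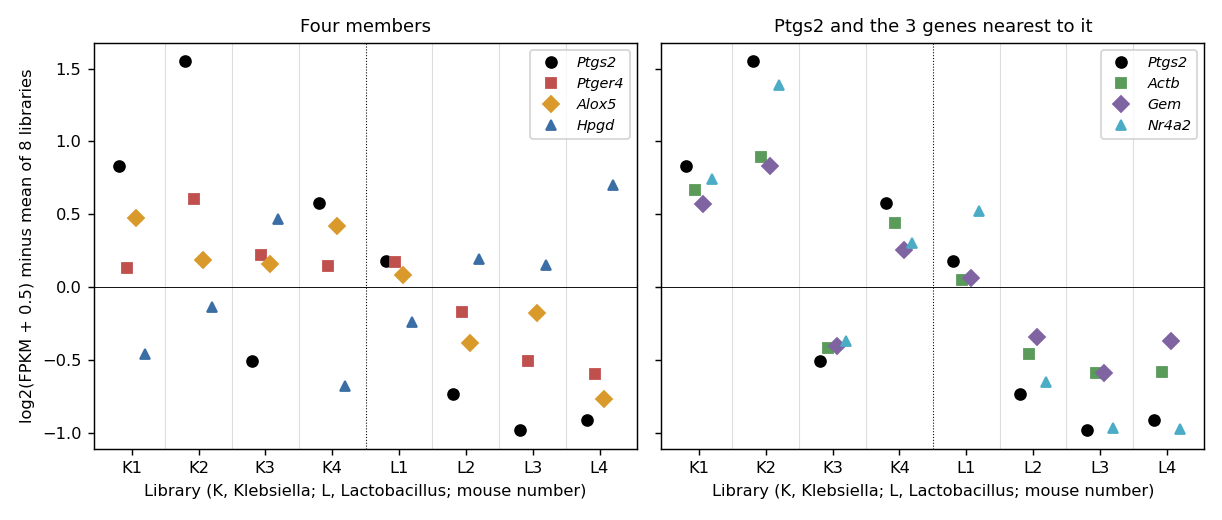
Log2(FPKM + 0.5) of each gene minus its mean over the 8 libraries, by library (K, Klebsiella; L, Lactobacillus; numbered by mouse), for 4 members (left) and for Ptgs2 with the 3 genes of most like profile (right). Klebsiella replicate 3 is the Klebsiella library in which Ptgs2, Actb, Gem and Nr4a2 all lie below their means, and Hpgd lies above its mean there.

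The rest of the pathway was taken from 7 lists of 50 other genes, of which 37 passed the filter. Of these 14 were positive and 23 negative on the log2 scale, their median was -0.053, and limma passed 0 at an adjusted p under 0.05. Before adjustment, limma gave a p under 0.05 to 0 of the 37 in the higher direction and to 1 in the lower. Over all genes tested the shares were 2.55% higher and 3.52% lower, and 46.4% of the differences were positive. A single gene of 37 thus does not set these lists apart from all genes. The 1 lower gene was Cbr1, a carbonyl reductase that can act on prostaglandin E2. Its values were 155.9, 174.1, 188.2 and 150.7 FPKM in the Klebsiella libraries and 176.3, 231.4, 212.4 and 203.3 FPKM in the Lactobacillus libraries. The log2 difference was -0.298 (SE 0.110, limma unadjusted p 0.0241, adjusted p 0.774). The groups overlapped through Lactobacillus replicate 1, which lay below Klebsiella replicate 3.

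Of 9 tested phospholipases 4 were positive and 5 negative. Pla2g10, a secreted phospholipase, had the highest level, at 106.3 ± 8.63 against 130.3 ± 26.2 FPKM (SD, n = 4 each; log2 difference -0.27, limma adjusted p 0.774). Pla2g4c, a cytosolic phospholipase, had the widest spread. It was at 34.0, 1.07, 2.39 and 4.62 FPKM in the Klebsiella libraries and at 15.9, 1.43, 1.07 and 0.293 FPKM in the Lactobacillus libraries, with replicate 1 of each group far above the rest. Its log2 difference was 1.09 (SE 1.11, limma adjusted p 0.839), 0.19 without Klebsiella replicate 1, 1.99 without Lactobacillus replicate 1 and 3.12 with the Hoxd13 covariate. Hoxd13 itself was highest in the same 2 libraries, at 46.3 and 43.9 FPKM, and its part in the Pla2g4c values was tested only through that covariate.

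In the transport and breakdown list, 5 of 5 genes had a log2 difference below 0 (median -0.17), as had 9035 of all 16865 genes tested, and 0 of the 5 were at an unadjusted p under 0.05 by limma. Abcc4 (-0.035, SE 0.12) and Ptgr1 (-0.054, SE 0.13), named here after their values were seen, were well within their errors. Slco2a1, the transporter that brings prostaglandins into cells for breakdown, was at 12.1 ± 2.18 against 14.5 ± 2.94 FPKM (SD, n = 4 each; log2 difference -0.25, limma adjusted p 0.781), and -0.12 without Lactobacillus replicate 4. Ptgr2, which reduces the oxidised product of Hpgd, was at 46.9 ± 5.39 against 53.2 ± 8.24 FPKM (log2 difference -0.17, limma adjusted p 0.787), and -0.071 without Lactobacillus replicate 4. That library was the highest for Hpgd, Slco2a1 and Ptgr2.

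Apart from Ptger4, receptors were low. Of 8 other prostanoid receptors 4 passed the filter, 2 positive and 2 negative. Ptger3, the EP3 receptor, was the highest of them at 2.70 ± 0.693 against 3.91 ± 1.61 FPKM (SD, n = 4 each; log2 difference -0.43, limma adjusted p 0.774). Ptger4 was above it in every library. The prostaglandin D2 receptors Ptgdr and Ptgdr2 were at most at 0.0179 and 0.0709 FPKM, although Hpgds was transcribed. Of 5 leukotriene receptors 3 passed the filter. Cysltr1, a receptor for cysteinyl leukotrienes, was at 1.21 to 1.82 FPKM (log2 difference -0.053, limma adjusted p 0.960), and Ltb4r1, a receptor for leukotriene B4, at 0.454 to 1.03 FPKM (log2 difference 0.083, limma adjusted p 0.946). The sign of these 2 differences turned when some libraries were left out.

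In leukotriene conversion 3 of 7 tested genes were positive and 4 negative. The highest was Mgst3, a microsomal glutathione transferase, at 238.3 ± 51.4 against 289.1 ± 40.7 FPKM (SD, n = 4 each; log2 difference -0.29, limma adjusted p 0.774). Its level per length was far above that of Ltc4s. Lta4h, which makes leukotriene B4, was at 88.0 to 116.2 FPKM, named here after its values were seen. Of 6 other lipoxygenases 2 passed the filter, and Alox15, the higher, was at 0.432 to 2.497 FPKM (log2 difference 0.0996, limma adjusted p 0.969), a sign that also turned when some libraries were left out.

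**Figure D4:**
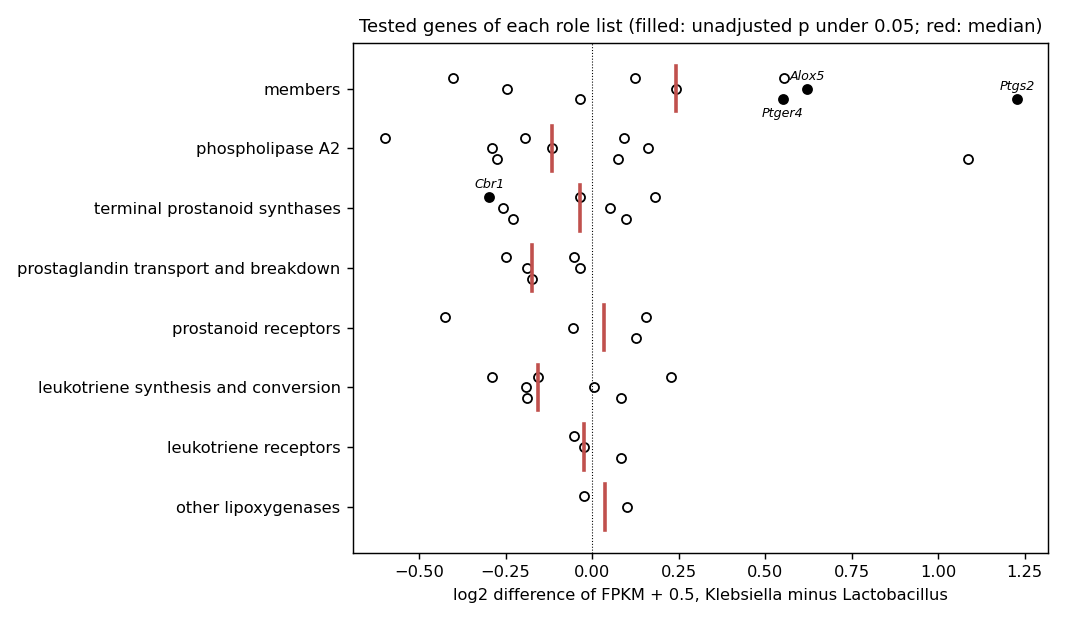
Log2 difference of FPKM + 0.5, Klebsiella minus Lactobacillus, for the tested genes of each role list (points, filled where the unadjusted p was under 0.05) with the list median (red line). The 3 filled points of the 9 members lie to the right and the filled point of Cbr1 to the left; all 5 genes of the transport and breakdown list lie left of 0.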

How the data were processed

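Per the labels' protocols, intestines were frozen, RNA was taken with Trizol and libraries were made with an Illumina TruSeq kit. Per the submitters' processing notes, STAR 2.5.1b, HTSeq 0.6.0, DESeq2 1.10.1 and CASAVA were used, with no role or order; the sources used here name no genome build or annotation. FPKM values for 49585 genes were deposited, with the authors' read counts per library and percent of bases at quality 30. They also gave FPKM for 15 genes that they labelled as differential, with 0 of the 9 members among them. The fit here called 0 genes, and the 15 genes were not compared with it. Symbols for 49326 identifiers and positions came from GENCODE M21.

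Genes with a mean of at least 0.5 FPKM (16865) were compared as log2(FPKM + 0.5), which understates changes of low genes, with limma 3.58.1 in R 4.3.3 (mean-variance trend, two-sided, Benjamini-Hochberg over all genes tested, threshold 0.05). FPKM steps gave whole reads for all 26963 of the 26963 genes detected in 2 or more libraries (within 0.0001 of a read); a factor shared by every library of a gene stays hidden. The fit and the recovery were tested on simulated data. Tables and figures were made with scipy 1.17.1, pandas 2.3.3, numpy 2.4.6 and matplotlib 3.10.9 in Python 3.11.15.

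The members and lists were chosen with earlier results of these data known. Named genes are the 9 members, in each other list the genes at an unadjusted p under 0.05, the highest and the most different, and the 3 genes of most like profile per member. Libraries correlated at 0.949 to 0.976 across genes, so none was a copy. Alternatives were other pseudocounts, filters and scalings, weights, a robust prior, voom, the mouse number as a block, log2 Hoxd13 as a covariate, and libraries left out.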

Additional observations from a re-analysis of the deposited data

Results flagged for a closer look

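Of 38 groups of 4 libraries, 1 for each group and named pathway gene, 6 held a library far from the other 3 by Dixon's test at the 95% level. For normally distributed values chance gives about 1 in 20. The test used FPKM and was not run on the log2 scale of the fit, where high values lie less far out. The 6 are therefore values to look at, and no excess over chance is drawn from them. Among the members, Ptgs2 in Lactobacillus replicate 1 was at 5.87 FPKM, with the rest of its group at 2.35 to 2.88. Ptger4 in Klebsiella replicate 2 was at 18.5 FPKM against 13.2 to 14.0. In the other lists, Pla2g4c was at 34.0 FPKM in Klebsiella replicate 1 against 1.07 to 4.62, and at 15.9 FPKM in Lactobacillus replicate 1 against 0.293 to 1.43. Ptgr2 in Lactobacillus replicate 4 was at 65.5 FPKM against 48.2 to 50.2. Ptger3 in Klebsiella replicate 4 was at 1.67 FPKM against 3.03 to 3.09.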

How the results depend on the processing

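Under 21 alternatives limma called 0 genes in either direction, so no member passed in any of them; the smallest adjusted p of a member was 0.356, for Alox5 and Ptger4, without Lactobacillus replicate 1. The log2 differences of Ptgs2 (0.79 to 1.60), Alox5 (0.47 to 0.78), Alox5ap (0.34 to 0.88), Ptger4 (0.36 to 0.70) and Hpgd (-0.73 to -0.24) kept their sign. With log2 Hoxd13 as a covariate the difference was -0.020 for Ptgs1, 0.090 for Ptges, 0.10 for Cysltr1 and -0.12 for Ltb4r1. Without the pair high in Ctrb1 it was 0.0070 for Ptges, -0.031 for Hpgds, 0.0016 for Cysltr1 and -0.0084 for Ltb4r1. Without the pair high in Hoxb6 it was 0.076 for Ltc4s and 0.047 for Cysltr1, and with array weights -0.011 for Alox15. With single libraries left out it ran from -0.14 to 0.063 for Ptges, -0.14 to 0.0037 for Cysltr1, -0.021 to 0.21 for Ltb4r1 and -0.21 to 0.35 for Alox15. These turned from the sign in the report; the cause was not tested.

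Genes at an unadjusted p under 0.05 numbered 1024, and 1825 with array weights, 1693 with the covariate, 431 without the pair high in Ctrb1 and 572 to 2009 with single libraries left out: 572 without Lactobacillus replicate 3, 1828 without Klebsiella replicate 3 and 2009 without Lactobacillus replicate 1. Of the 1024, 41.99% were higher, against 58.2% of 1017 with FPKM rescaled to a constant total. Of the other pathway genes 1 was at that level, 2 with no filter or with array weights, 9 with the covariate, 5 and 0 without the pairs high in Hoxb6 and Ctrb1, and 0 to 4 with single libraries left out. The mouse number did not pair the libraries: deviations of same-numbered mice correlated at 0.189, -0.100, -0.0591 and -0.159. With it as a block limma called 0 genes, 1027 were at an unadjusted p under 0.05, and Ptgs2 was at 1.23 (adjusted p 0.797). Depth limits Ltc4s (6 to 25 reads) and Alox5ap (15 to 53 reads) most.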
